A study of Mus musculus with 6 samples.

Results

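The expression of 10 genes of endothelial cells, the cells that line blood vessels, was followed across RNA-seq libraries of mouse bone and of osteoblasts. The genes, *Cdh5*, *Pecam1*, *Kdr*, *Tek*, *Emcn*, *Egfl7*, *Flt1*, *Stab2*, *Esam* and *Robo4*, were taken as a named list of endothelial genes, and each was matched by gene name in the 6 deposited tables, with FPKM summed by name. A named feature was found for 9 of the 10 among 48733 named genes, and none carried the name *Stab2*. All 6 libraries were from mice of the inbred Collaborative Cross strain CC016/GeniUnc, with no transgene or knockout named, and the ages were not given in the labels. The 3 libraries labelled bone were of femoral cortical bone minus marrow, from which the marrow had been spun out at 2000 xg for 30 s. The 3 libraries labelled osteoblasts were of adherent bone marrow stromal cells kept for 8 days in medium with dexamethasone (10 nM), beta-glycerophosphate (10 mM) and ascorbic acid (50 µg/ml). By the study's methods the femora came from 3 mice, and the labels do not say which libraries share a mouse, so the p-values below measure only the spread between these libraries. Bone replicates are called B1 to B3 and osteoblasts replicates O1 to O3.

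Endothelial cells are held together by junctions built on VE-cadherin, the product of *Cdh5*, together with the adhesion molecules PECAM-1 (*Pecam1*) and ESAM (*Esam*). They grow and survive in response to vascular endothelial growth factors, read by the receptors VEGFR2 (*Kdr*) and VEGFR1 (*Flt1*), and to angiopoietins, read by TIE2 (*Tek*). ROBO4 is a roundabout-family receptor that stabilises vessels, EGFL7 is a protein that endothelial cells secrete into the matrix, and endomucin (*Emcn*) is a sialoglycoprotein of capillary and venous endothelium. Stabilin-2 (*Stab2*) is a scavenger receptor of sinusoids, the wide and leaky vessels of bone marrow and liver. Several of these genes are also used outside endothelium, since PECAM-1 is carried by platelets and leukocytes, ESAM by platelets, megakaryocytes and hematopoietic stem cells, and TIE2 by hematopoietic stem cells. Mineralised bone is crossed by vessels, whereas a culture of differentiating stromal cells has no circulation.

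RefSeq promoter windows, from 250 bases before to 50 after the gene start in GRCm38.p6, were matched for 7 of the 10 genes, all but *Cdh5*, *Pecam1* and *Esam*. Endothelial genes are known as targets of ETS factors, so the windows were searched on both strands for CAGGAAG, a longer form of the ETS core GGAA. It was in the windows of 3 of the 7, *Egfl7*, *Emcn* and *Robo4*, against 13.3% of the 32851 windows of all genes. The core GGAA alone was in all 7, but also in 96.0% of all windows, and it overlaps the longer form. For these counts 1 window per gene was used, which for *Egfl7* was the most upstream of 3. GATAA was in 2 of the 7 windows and in 25.4% of all windows, ACAAT, a form of the SOX motif, in 3 of the 7 and in 31.0%, and TATAAA in 1 of the 7 and in 13.6%. The windows of 3 genes that hold CAGGAAG and of 2 receptor genes that do not are shown 5' to 3' on the strand of the gene, with CAGGAAG or its reverse complement in capitals. A match is a description of the letters and not a site of binding. For *Egfl7*, the counted window is shown, and another of its windows also holds GATAA.
Egfl7, chr2:26580833-26581132, plus strand: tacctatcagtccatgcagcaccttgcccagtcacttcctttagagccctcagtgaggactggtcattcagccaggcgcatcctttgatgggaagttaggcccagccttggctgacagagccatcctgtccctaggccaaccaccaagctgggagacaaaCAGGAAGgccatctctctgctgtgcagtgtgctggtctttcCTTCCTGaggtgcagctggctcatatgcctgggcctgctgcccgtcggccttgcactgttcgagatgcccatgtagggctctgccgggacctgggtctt
Emcn, chr3:137340828-137341127, plus strand: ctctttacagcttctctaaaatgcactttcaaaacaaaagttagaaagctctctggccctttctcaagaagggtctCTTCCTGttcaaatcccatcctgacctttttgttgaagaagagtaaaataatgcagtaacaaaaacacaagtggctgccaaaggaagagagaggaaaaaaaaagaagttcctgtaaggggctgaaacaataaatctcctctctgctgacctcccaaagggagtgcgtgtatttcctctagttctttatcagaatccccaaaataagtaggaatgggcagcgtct
Robo4, chr9:37401722-37402021, plus strand: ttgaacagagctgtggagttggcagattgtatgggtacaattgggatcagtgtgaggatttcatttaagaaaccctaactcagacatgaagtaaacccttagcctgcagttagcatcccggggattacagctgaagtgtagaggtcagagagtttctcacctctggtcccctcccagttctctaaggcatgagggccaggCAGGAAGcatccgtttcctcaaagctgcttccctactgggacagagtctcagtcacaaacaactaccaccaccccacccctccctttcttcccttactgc
Kdr, chr5:75978406-75978705, minus strand: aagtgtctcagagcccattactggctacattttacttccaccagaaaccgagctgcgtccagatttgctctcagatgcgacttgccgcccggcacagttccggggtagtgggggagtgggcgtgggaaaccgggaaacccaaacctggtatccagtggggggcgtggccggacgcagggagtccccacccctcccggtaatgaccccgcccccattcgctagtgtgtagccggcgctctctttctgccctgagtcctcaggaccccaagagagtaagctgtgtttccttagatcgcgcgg
Tek, chr4:94739039-94739338, plus strand: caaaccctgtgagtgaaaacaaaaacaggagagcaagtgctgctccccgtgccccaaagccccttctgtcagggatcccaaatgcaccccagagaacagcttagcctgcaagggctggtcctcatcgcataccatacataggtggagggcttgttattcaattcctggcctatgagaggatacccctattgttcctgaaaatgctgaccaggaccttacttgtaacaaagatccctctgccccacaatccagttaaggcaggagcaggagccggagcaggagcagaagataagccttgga

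The *Egfl7* gene also holds miR-126 in an intron. The mature miR-126a-3p, at chr2:26591402-26591423 on the plus strand of GRCm38.p6, is shown from 5' to 3' because it shares its transcript with *Egfl7*, with the seed (bases 2 to 8) in capitals.
mmu-miR-126a-3p: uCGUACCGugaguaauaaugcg
Mature miRNAs were not measured by these libraries, and the feature *Mir126b*, on the opposite strand at the same place, was listed at an FPKM of 0 in all 6 libraries.

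The libraries did not group by label. Values are FPKM, fragments per kilobase of transcript scaled to the mapped fragments of the library, and aligned depth ranged from 2.03 to 3.39 Gb per library. *Hbb-bt*, a beta-globin gene of red cells, was above 1000 FPKM in B3 (34838 FPKM), O2 (34268 FPKM) and O3 (48650 FPKM). It was not above 1000 FPKM in B1 (7.05 FPKM), B2 (3.58 FPKM) or O1 (3.43 FPKM). Its feature also spans *Hbb-bs*, so the value covers both globin genes. Across 12112 genes, log2 values correlated at 0.965 to 0.973 within each of these sets of 3 libraries and at 0.640 to 0.680 between them, whatever the label. Unnamed features held 71.5% of all FPKM in B2 and 65.0% in O1, against 27.4 to 30.7% in the other 4, which left a smaller share to named genes in B2 and O1. The osteocyte markers were mixed. *Sost* was at most 0.198 FPKM in B1, B2 and O1 and 15.8 to 22.7 FPKM in the others, *Dmp1* ran the other way with 50.0 to 126.6 FPKM in B1, B2 and O1 and 22.5 to 24.3 FPKM in the others, and *Phex* ranged from 4.61 to 8.19 FPKM. The osteoblast markers *Col1a1*, *Runx2* and *Sp7* were present in all 6 libraries. *Ibsp* measured 986 to 1277.5 FPKM in B1, B2 and O1 and 43.1 to 91.3 FPKM in the others. Of the 6 osteoblast markers tested, 2, *Ibsp* and *Alpl*, had their 3 lowest values in B3, O2 and O3, and 0 their 3 highest. Of all genes tested, 16.9% had their 3 lowest values there and 38.4% their 3 highest. Because B1 and B2 resembled O1, and B3 resembled O2 and O3, some labels or tables may have been exchanged. This was not tested, and every label mean, fold change and test below would change its meaning if they were. Values are therefore given library by library, and label means and tests follow the labels as deposited.

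The genes of endothelial junctions were high in 3 libraries and low in 3, with both kinds under each label. *Cdh5* (chr8:104101625-104144511 in GRCm38, plus strand) measured 1.75, 0.0425 and 8.89 FPKM in B1, B2 and B3, and 1.39, 7.68 and 10.7 FPKM in O1, O2 and O3. Its 3 highest values were in B3, O2 and O3, and the lowest of these was 4.39 times the highest of the others. The value in B2 was under the 0.0512 FPKM that 3 read pairs on the longest *Cdh5* transcript would give there. By label, *Cdh5* averaged 3.56 ± 4.69 FPKM in bone and 6.57 ± 4.73 FPKM in osteoblasts (SD, n = 3 each), and the labels overlapped. Within the libraries it was above 62.2% of the genes measured at 1 FPKM or more in B3 and above 66.0% in O3, but above 9.77% in B1. In bulk libraries, fewer endothelial cells and less RNA per cell cannot be told apart.

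*Pecam1* (chr11:106654217-106750628, minus strand), the adhesion molecule that endothelium shares with platelets and leukocytes, measured 1.92, 0.0871 and 15.5 FPKM in B1, B2 and B3. In O1, O2 and O3 it measured 0.526, 20.9 and 20.9 FPKM. B3, O2 and O3 were again highest, and the lowest of them was 8.12 times B1, the next value. Its feature is 1.58 times as long as the RefSeq gene, and it also overlaps the pseudogene *Gm51950*. *Esam* (chr9:37528078-37538319, plus strand) measured 1.29, 0 and 18.3 FPKM in B1, B2 and B3, and 0.859, 17.8 and 16.2 FPKM in O1, O2 and O3. It was listed at 0 in B2, where 3 read pairs on its longest transcript would give 0.109 FPKM. Its lowest value in B3, O2 and O3 was 12.6 times its value in B1. By label, *Esam* averaged 6.55 ± 10.2 FPKM in bone and 11.6 ± 9.35 FPKM in osteoblasts, and *Pecam1* 5.85 ± 8.45 and 14.1 ± 11.8 FPKM (SD, n = 3 each).

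**Figure D1:**
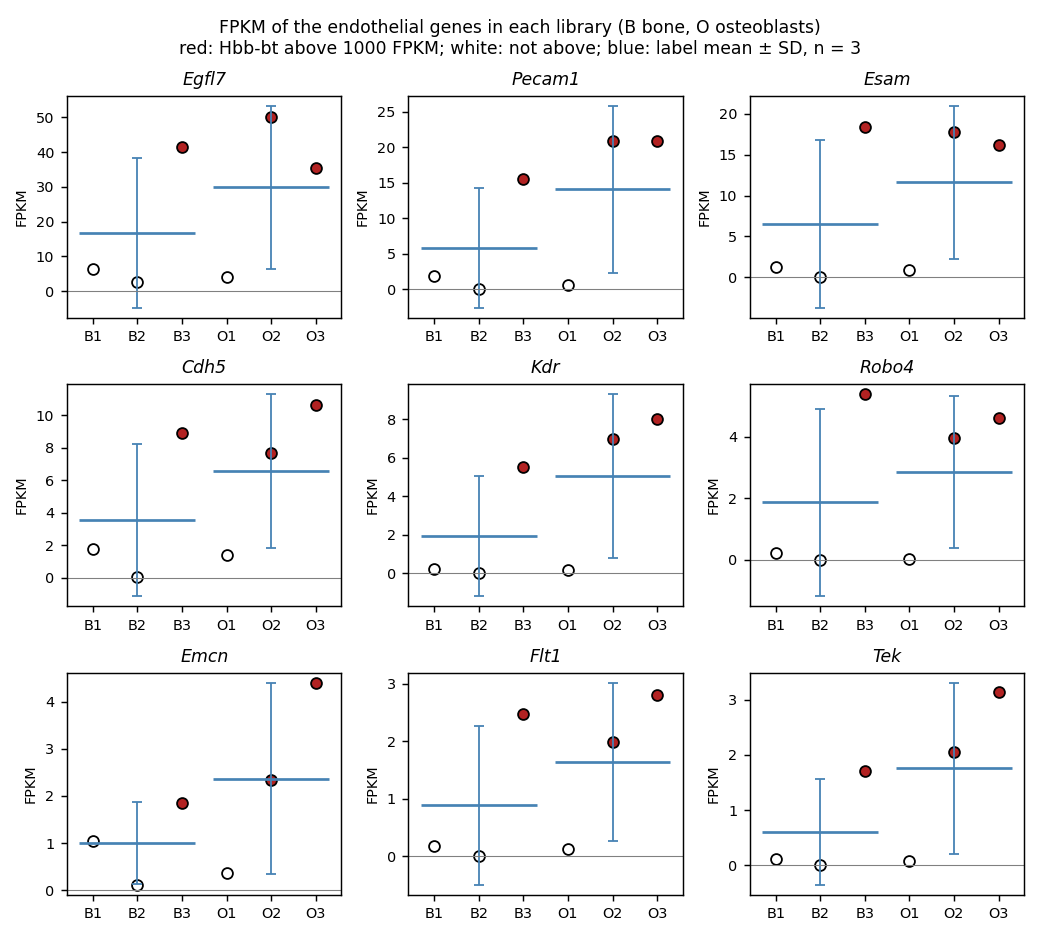
FPKM of each of the 9 endothelial genes on a linear axis in the 3 libraries labelled bone (B1 to B3) and the 3 labelled osteoblasts (O1 to O3). Points are libraries, red where *Hbb-bt* was above 1000 FPKM and white where it was not, and blue lines are label means with SD (n = 3). In every panel B3, O2 and O3 hold the 3 highest points and B2 the lowest, with B1 close below B3 only for *Emcn*.

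The receptors were highest in the same 3 libraries and under 0.3 FPKM in the others. *Kdr* (chr5:75932827-75978458, minus strand), the main signalling receptor for VEGF-A, measured 0.229, 0.0257 and 5.53 FPKM in B1, B2 and B3 and 0.187, 6.98 and 7.99 FPKM in O1, O2 and O3. The lowest of its 3 highest libraries, B3, was 24.1 times B1, the widest such step among the 9 genes. *Flt1* (chr5:147561604-147726011, minus strand), a decoy-like receptor that binds VEGF tightly, measured 0.176, 0.00488 and 2.48 FPKM in the bone libraries and 0.130, 1.99 and 2.81 FPKM in the osteoblasts libraries, in the same order of replicates. Its step was 11.3 times. *Kdr* averaged 1.93 ± 3.12 FPKM in bone and 5.06 ± 4.25 FPKM in osteoblasts (SD, n = 3 each). Both receptors were under their floor of 3 read pairs in B2, which was 0.0345 FPKM for *Kdr* and 0.0296 FPKM for *Flt1*.

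*Tek* (chr4:94739289-94874976, plus strand), the angiopoietin receptor, measured 0.104, 0 and 1.71 FPKM in B1, B2 and B3 and 0.0716, 2.06 and 3.14 FPKM in O1, O2 and O3. *Robo4* (chr9:37401897-37415115, plus strand) measured 0.210, 0 and 5.39 FPKM in the bone libraries and 0.0395, 3.96 and 4.60 FPKM in the osteoblasts libraries. Both were listed at 0 in B2, and *Robo4* in O1 was under the 0.0569 FPKM of 3 read pairs. The step from the third-highest to the fourth-highest library was 16.4 times for *Tek* and 18.9 times for *Robo4*. *Robo4* and *Esam* lie on the same strand of chromosome 9 and were both highest in B3, unlike the other 7 genes. Of those 7, 5 were highest in O3 and 2, *Egfl7* and *Pecam1*, in O2.

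*Emcn* (chr3:137341067-137432185, plus strand) showed the smallest step. It measured 1.04, 0.118 and 1.85 FPKM in B1, B2 and B3 and 0.364, 2.33 and 4.40 FPKM in O1, O2 and O3, so that B3 was 1.78 times B1. All 6 of its values were above the floor of 3 read pairs. *Egfl7* (chr2:26580014-26636497, plus strand) was the only one of the 9 with an FPKM above 2 in all 6 libraries. It measured 6.26, 2.61 and 41.6 FPKM in the bone libraries and 4.12, 50.0 and 35.5 FPKM in the osteoblasts libraries, a step of 5.66 times. Its label means were 16.8 ± 21.5 FPKM in bone and 29.9 ± 23.5 FPKM in osteoblasts (SD, n = 3 each). The deposited *Egfl7* feature is 4.87 times as long as the RefSeq gene and covers 2 other protein-coding genes, *Agpat2* and *Dipk1b*, which have no named feature of their own, so their reads and those of *Egfl7* cannot be told apart there. StringTie sums FPKM over the transcripts of a feature, and the *Egfl7* FPKM was 11.8 to 16.2 times what the mean coverage of the feature gives, against 1.05 to 1.09 times for *Cdh5*.

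No named feature carried *Stab2*, but 1 unnamed feature (chr10:86841198-87008025, minus strand) covers nearly the whole RefSeq span of the gene, 86841194 to 87008038. It measured 0.134, 0.0248 and 15.8 FPKM in B1, B2 and B3 and 0.0694, 19.4 and 19.5 FPKM in O1, O2 and O3. B3, O2 and O3 were again the high libraries, and these values were not used in any count or test below. The features of *Cdh5*, *Kdr*, *Emcn* and *Flt1* each overlap 1 other RefSeq gene, whose reads cannot be told apart from theirs.

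The order of the levels depended on the library. Averaged over the 6 libraries, the 9 genes ranked *Egfl7* (23.3 FPKM), *Pecam1* (9.98), *Esam* (9.08), *Cdh5* (5.07), *Kdr* (3.49), *Robo4* (2.37), *Emcn* (1.68), *Flt1* (1.26) and *Tek* (1.18 FPKM). The order held in 6 of 6 libraries for *Egfl7* over *Pecam1*, *Cdh5* over *Kdr* and *Kdr* over *Robo4*. *Esam* was above *Cdh5* in B3, O2 and O3 only, and *Robo4* was above *Emcn* in the same 3 libraries. *Pecam1* and *Esam*, and *Flt1* and *Tek*, changed places in 2 of the 6 libraries, and *Emcn* and *Flt1* in 1. On mean coverage per aligned base in place of FPKM, which does not add up transcripts, *Cdh5* came first and *Egfl7* fell to place 5.

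Relative to *Cdh5* within a library, which does not depend on scaling, *Kdr*, *Tek*, *Flt1*, *Robo4*, *Esam* and *Pecam1* were higher in B3, O2 and O3 than in B1 and O1. *Kdr* was 0.131 times *Cdh5* in B1 and 0.135 times in O1. In B3, O2 and O3 it was 0.622, 0.909 and 0.751 times *Cdh5*. *Tek* was 0.0596 and 0.0517 times *Cdh5* in B1 and O1, and 0.193 to 0.295 times in the other 3. *Flt1* was 0.101 and 0.0942 times against 0.259 to 0.278, and *Esam* 0.737 and 0.620 times against 1.52 to 2.315. *Pecam1* was 1.09 and 0.380 times against 1.75 to 2.73. *Robo4* was 0.120 times in B1, under the floor in O1, and 0.432 to 0.606 times in the other 3. *Emcn* did not follow this pattern: it was 0.592 times *Cdh5* in B1 and 0.263 times in O1, against 0.208, 0.304 and 0.413 times in B3, O2 and O3. *Egfl7* did not either, at 3.58 times in B1 and 3.33 times in O3. B2 was left out of these ratios because its *Cdh5* was under the floor.

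**Figure D2:**
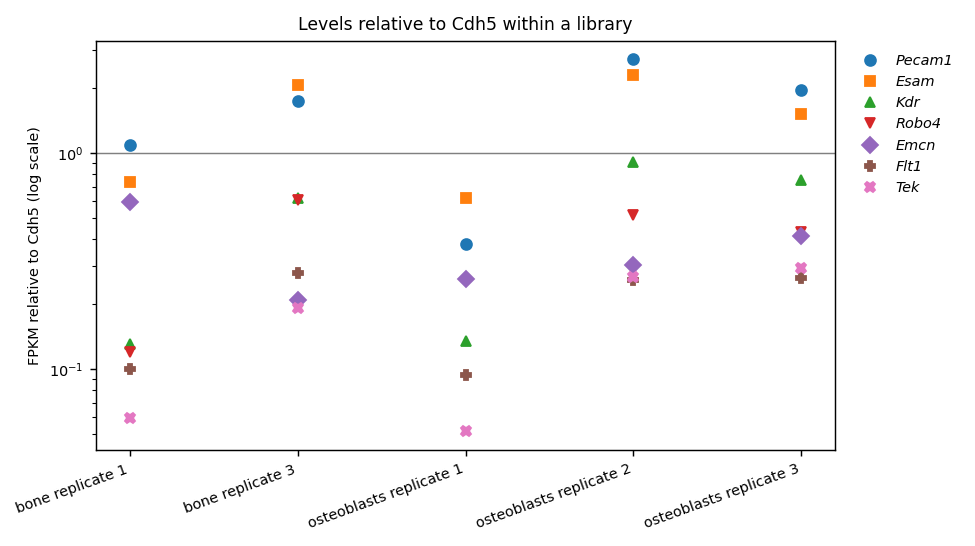
FPKM of 7 endothelial genes divided by the FPKM of *Cdh5* in the same library, on a log axis, for 5 libraries, with values under the floor of 3 read pairs left out. *Kdr* is at 0.131 and 0.135 in B1 and O1 and at 0.622 to 0.909 in the other 3, while *Emcn* is at 0.592 and 0.263 against 0.208 to 0.413. *Pecam1*, *Esam*, *Robo4*, *Flt1* and *Tek* also lie higher in B3, O2 and O3, with *Robo4* not drawn in O1.

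Between the labels, none of the 9 genes passed the test. limma on log2(FPKM + 1) over 12112 genes gave log2 fold changes, osteoblasts over bone, of 0.55 for *Flt1* to 1.27 for *Pecam1*. All 9 were positive, with standard errors of 0.61 to 1.21, and the adjusted p was 0.999 for each (Benjamini-Hochberg). *Cdh5* had a log2 fold change of 1.03 with a 95% interval from -0.93 to 2.99, and *Kdr* one of 1.12 from -0.98 to 3.23. The median over the 9 genes was 1.03, against 0.12 over all genes tested. limma called 0% of all genes higher and 0% lower in osteoblasts at an adjusted p under 0.05, and 17 of the 12112 had an unadjusted p under 0.05. With their 3 highest values set to 0, all but *Egfl7* would average under 1 FPKM over the 6 libraries, so their having passed the filter supports nothing.

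The values under the labels overlapped for 9 of the 9 genes, so 0 stood apart in either direction. Of all genes tested, 0.438% had every bone value above every osteoblasts value and 0.479% the reverse. The 3 highest values of 9 of the 9 genes lay in B3, O2 and O3, a place they share with 38.4% of all genes tested. Leaving out O1 changed the calls. *Pecam1* then had a log2 fold change of 2.55 with an adjusted p of 0.0378 in limma, as 1 of the 9 genes called, where 2.16% of all genes were called higher. *Pecam1*, *Kdr*, *Emcn* and *Tek*, 4 of the 9, then lay higher in every remaining osteoblasts library than in every bone library, as did 18.6% of all genes. The median log2 fold change of all genes was 0.28 in that setting. With B2 left out in place of O1, the log2 fold change of *Pecam1* was 0.38. With both left out, a setting chosen after seeing the data, 0 of the 9 genes were called and the same 4 lay higher in every osteoblasts library than in every bone library, as did 18.7% of all genes.

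**Figure D3:**
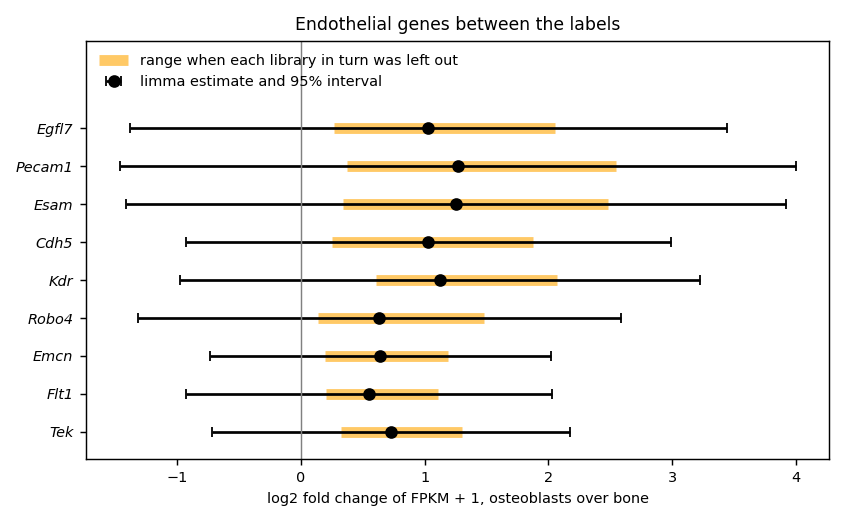
log2 fold change of FPKM + 1, osteoblasts over bone, for the 9 endothelial genes, with limma's 95% interval in black and in orange the range of estimates when each of the 6 libraries in turn was left out. All 9 intervals cross 0, and the orange ranges stay above 0, from 0.14 at the low end for *Robo4* to 2.55 at the high end for *Pecam1*.

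The ligands and partners of the receptors were mixed in where they were high. Of 8 genes of the VEGF family, 6 were tested and 0 passed limma in either direction, with a median log2 fold change of 0.01. The neuropilins, co-receptors for VEGF, had the highest levels: *Nrp2* measured 89.4, 43.3 and 30.6 FPKM in B1, B2 and B3 and 81.4, 26.6 and 27.1 FPKM in O1, O2 and O3, and *Nrp1* 81.1, 38.7 and 10.3 FPKM and 48.5, 11.2 and 11.2 FPKM. For both, the libraries with the most *Kdr* had the least. *Flt4*, the receptor VEGFR3, went with *Kdr*, at 6.55 to 8.53 FPKM in B3, O2 and O3 and at most 0.157 FPKM elsewhere. Of the 6 genes, 2 had their 3 highest and 2 their 3 lowest values in B3, O2 and O3, against 38.4% and 16.9% of all genes. *Vegfa*, the ligand of both VEGF receptors, measured between 7.80 and 15.3 FPKM in the 6 libraries. *Vegfa*, *Flt4*, *Angpt1*, *Ptprb* and *Slit2* were picked after their values were seen.

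Of 5 genes of the angiopoietin system, 4 were tested and 0 passed limma. In B3, O2 and O3, 2 of the 4 had their 3 highest values and 1 its 3 lowest, against 38.4% and 16.9% of all genes. *Tie1*, the orphan partner of TIE2, measured 0.404, 0.0162 and 10.5 FPKM in B1, B2 and B3 and 0.243, 11.2 and 8.75 FPKM in O1, O2 and O3. *Ptprb*, the endothelial phosphatase that acts on TIE2, was at most 0.230 FPKM in B1, B2 and O1, and 4.34 to 4.95 FPKM in the others, the libraries with the most *Tek*. The ligands ran otherwise. *Angpt2* was highest in B1, at 10.0 FPKM, and between 2.02 and 3.51 FPKM elsewhere, and *Angpt1* was also highest there, at 11.7 FPKM. Of 7 Slit, Robo and Unc5 genes, 4 were tested and 0 passed, with 1 highest and 1 lowest in B3, O2 and O3. *Unc5b*, a partner of ROBO4, measured 50.7, 32.5 and 32.1 FPKM in B1, B2 and O1 and 9.11 to 15.0 FPKM in the other 3. *Slit3* ranged from 7.71 to 18.3 FPKM and *Slit2* from 4.81 to 18.5 FPKM.

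Other endothelial genes were mixed. Of 17 junction and surface genes, 16 were tested, 0 passed limma, and 9 had their 3 highest values in B3, O2 and O3, with 4 at their 3 lowest there, against 38.4% and 16.9% of all genes. The 9, named after their values were seen, were *Cldn5*, *Icam2*, *Mmrn2*, *Clec14a*, *Plvap*, *Cd34*, *Ecscr*, *Myct1* and *Adgrl4*. Among them, *Plvap* measured 24.4 to 26.9 FPKM there and at most 0.648 FPKM elsewhere, and *Cldn5* 12.2 to 14.3 and at most 0.150 FPKM. The 4 were *Tjp1*, *Jam3*, *S1pr1* and *Ctnnd1*. *Ctnnd1*, the p120 catenin that binds VE-cadherin and is used in most adherent cells, had the most, at 131, 68.2 and 76.8 FPKM in B1, B2 and O1 and 27.7 to 31.6 FPKM in the others. *Eng*, a co-receptor for TGF-beta, ranged from 7.89 to 23.3 FPKM. Of 16 transcription factors, 12 were tested, 0 passed, and 7 had their 3 highest values in those libraries. Another 2, *Elk3* and *Klf4*, had their 3 lowest values there. The top levels were those of *Lmo2*, at 64.4 to 73.6 FPKM there and 9.14 to 17.4 FPKM elsewhere, and *Tal1*, at 67.6 to 75.8 FPKM there and 0.670 to 1.63 FPKM elsewhere, a pair that acts in blood as well as in vessels. Of 13 secreted and signalling genes, 9 were tested, 0 passed, and 7 had their 3 highest values in the same libraries. For 1, *Ece1*, the 3 lowest were there, at 10.0 to 11.6 FPKM against 20.5 to 47.7 FPKM elsewhere. *Vwf*, made by endothelium and megakaryocytes, measured 41.8 to 63.2 FPKM there and at most 0.420 FPKM elsewhere, and *Ramp2*, an adrenomedullin co-receptor, 23.3 to 31.0 and 12.5 to 22.3 FPKM.

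Arterial, sinusoidal and mural genes were counted in the same way. Of 10 arterial and tip cell genes, 6 were tested and 0 passed, with 3 at their 3 highest values in B3, O2 and O3 and 0 at their 3 lowest. *Notch1* ranged from 8.54 to 27.5 FPKM, and *Esm1*, a tip cell gene, was highest in B1, at 23.5 FPKM. Of 8 sinusoidal and lymphatic genes, 3 were tested and 0 passed, with 1 highest and 2 lowest in those libraries. *Stab1*, the relative of *Stab2* that macrophages also carry, measured 558, 292 and 303 FPKM in B1, B2 and O1 and 16.7 to 18.1 FPKM in the other 3. *Mrc1*, likewise a gene of macrophages, measured 126.7, 70.0 and 82.2 FPKM and 10.1 to 18.6 FPKM. Of 8 genes of mural cells, 8 were tested and 0 passed, with 3 highest and 2 lowest in those libraries. *Acta2* measured 350.5, 136 and 144 FPKM in B1, B2 and O1 and 6.79 to 11.8 FPKM in the others, and *Pdgfrb* ranged from 14.5 to 63.3 FPKM. The 3 mural genes that were highest in B3, O2 and O3, named after their values were seen, were *Des* (10.3 to 61.0 FPKM there and at most 2.39 FPKM elsewhere), *Abcc9* (4.91 to 8.30 and at most 0.263 FPKM) and *Kcnj8* (1.58 to 2.51 FPKM and listed at 0 elsewhere). Without O1, limma called 5 of the 68 tested genes of the 9 related lists, with *Plvap* (log2 fold change 2.87), *Tal1* (3.29), *Vwf* (3.34) and *Gpihbp1* (2.45) higher and *Acta2* (-3.35) lower in osteoblasts, at adjusted p from 0.0213 to 0.0332. In that setting 2.16% of all genes were called higher and 0.314% lower. *Plvap* and *Gpihbp1* are genes of capillary endothelium. Over all 6 libraries, list medians of the log2 fold change were 0.39 for junction and surface genes, 0.39 for transcription factors, 0.52 for secreted and signalling genes and 0.25 for arterial genes. They were 0.16 for the angiopoietin system, 0.06 for Slit, Robo and Unc5, -0.66 for sinusoidal and lymphatic genes and 0.12 for mural genes, against 0.12 over all genes.

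**Figure D4:**
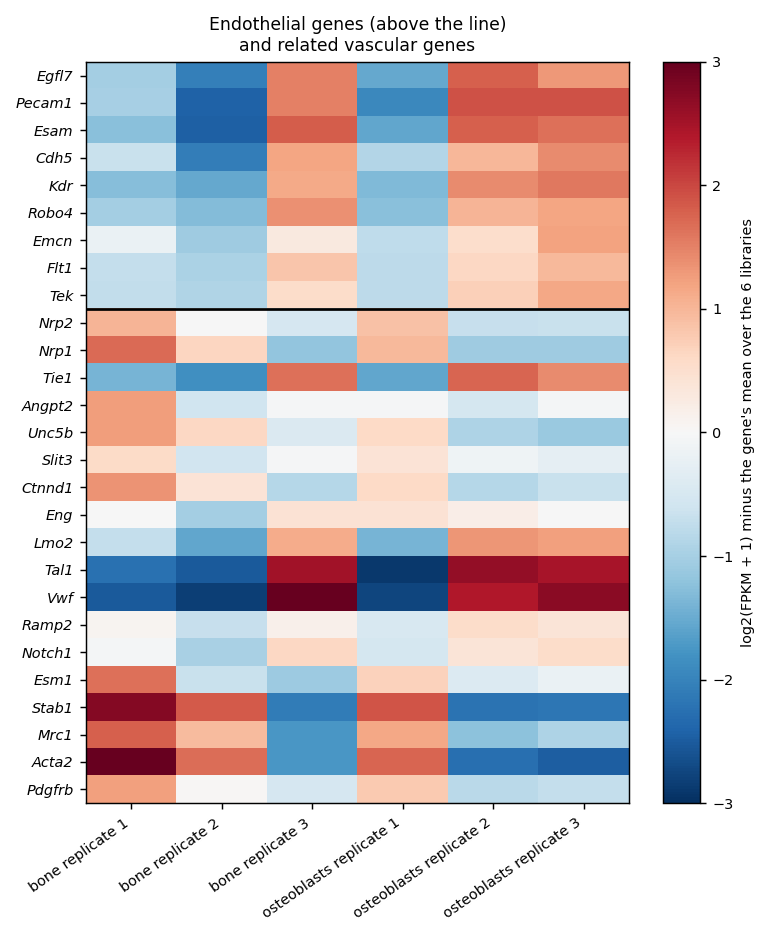
log2(FPKM + 1) minus the mean of the gene over the 6 libraries, for the 9 endothelial genes above the line and, below it, the 2 genes of highest mean FPKM in each of 9 lists of related vascular genes. Values beyond 3 in either direction are drawn in the end colours. The 9 genes, *Tie1*, *Tal1*, *Lmo2* and *Vwf* are red in B3, O2 and O3, and *Nrp1*, *Stab1*, *Mrc1* and *Acta2* are blue there.

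Markers of other cell types moved with the endothelial genes, and their part in the result was not tested. The 9 genes summed to 13.0, 2.88 and 101 FPKM in B1, B2 and B3 and to 7.68, 114 and 106 FPKM in O1, O2 and O3. The *Egfl7* feature, which also covers *Agpat2* and *Dipk1b*, made up 33.4 to 53.6% of this sum in 5 libraries and 90.4% in B2. Without it the sum was 6.71, 0.278 and 59.7 FPKM in B1, B2 and B3 and 3.56, 63.7 and 70.7 FPKM in O1, O2 and O3. The erythroid list (5 of 8 genes named) summed to between 3.67 and 36369 FPKM under the label bone and between 3.48 and 50289 FPKM under osteoblasts, with *Epb42* listed at 0 in B1, B2 and O1. The neutrophil list (8 of 9) ranged from 2.95 to 14295 FPKM under bone and from 2.53 to 17320 FPKM under osteoblasts, with *Elane* listed at 0 in the same 3 libraries. The megakaryocyte and platelet list (7 of 9) ranged from 55.5 to 684.5 and from 93.5 to 817 FPKM, with *Ppbp* and *Gp6* at 0 in B1, B2 and O1. The skeletal muscle list (3 of 6) ranged from 0.451 to 943 and from 0.0324 to 461 FPKM, with *Tnnt3* at 0 in those 3. Each of the 5 erythroid, 8 neutrophil, 7 megakaryocyte and 3 muscle genes had its 3 highest values where the endothelial genes did. Of all genes tested, 38.4% did so.

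The other lists ran against them, across them or in part with them. The macrophage list (7 of 7) ranged from 432 to 2815 FPKM under bone and from 452 to 1654 FPKM under osteoblasts. Each of its 7 genes had its 3 lowest values in B3, O2 and O3, as did 16.9% of all genes tested. The osteoblast list (6 of 8) ranged from 4640 to 8224 and from 3677 to 7460 FPKM. Of its 6 tested genes, 0 were highest and 2 lowest in B3, O2 and O3. The osteocyte list (4 of 5) ranged from 47.7 to 112 and from 45.4 to 133 FPKM, with *Fgf23* at 0 in 3 libraries. Of its 3 tested genes, 1 was highest and 1 lowest there. The adipocyte list (5 of 5) ranged from 51.7 to 350 and from 195 to 309 FPKM, with 2 of 5 genes highest there and 0 lowest. The stem and progenitor list (7 of 7) ranged from 21.6 to 36.3 and from 25.3 to 40.5 FPKM, with *Slamf1* at 0 in B1, B2 and O1. Of its 6 tested genes, 3 (*Kit*, *Slamf1* and *Meis1*) had their 3 highest values in B3, O2 and O3. For 1, *Cd48*, the 3 lowest were there, against 38.4% highest and 16.9% lowest there of all genes. These genes were named after their values were seen.

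**Figure D5:**
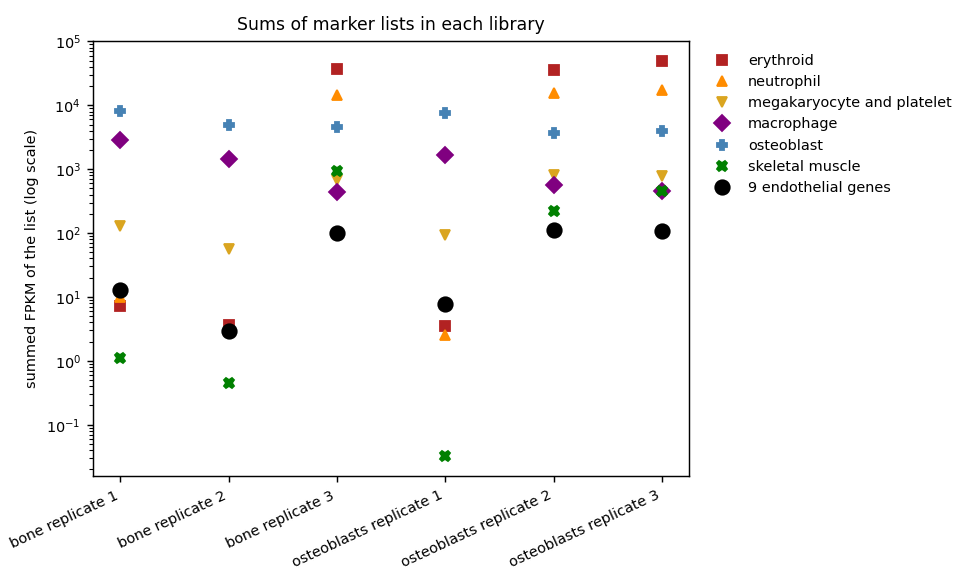
Summed FPKM of the 9 endothelial genes (black circles) and of 6 marker lists in each of the 6 libraries, on a log axis. The endothelial sum, *Egfl7* included, is at 101 to 114 FPKM in B3, O2 and O3 and at 2.88 to 13.0 FPKM in the other 3, with the erythroid, neutrophil, megakaryocyte and muscle sums high in the same libraries and the macrophage sum lower there.

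The 10 genes most like the median profile of the 9 included none from the vascular lists. Likeness was the largest difference, over the 6 libraries, between the centred log2(FPKM + 1) of a gene and the median of the 9. Among 12103 other genes, *Acss1*, a mitochondrial acetyl-CoA synthetase, came closest with a largest difference of 0.13, then *Gm17709* (0.17), *Gm24347* (0.19), *Mtfp1* (0.20), *Snora62* (0.21), *Rab37* (0.21), *Slc22a23* (0.21), *Dnajb2* (0.21), *Gapt* (0.21) and *Frat1* (0.21). The 9 genes themselves make up this median, so their own distances are partly set by it and cannot be compared with those of other genes. Of the 9, *Robo4* lay closest, with a largest difference of 0.24, and *Kdr* followed with 0.41. *Esam*, *Pecam1* and *Emcn* lay farthest, with 0.91, 0.91 and 0.89. A total of 385 other genes lay within 0.5, of the 12103 compared.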

How the data were processed

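RNA-seq libraries labelled bone (3) and osteoblasts (3) were made by the authors with a TruSeq RNA Library Prep Kit v2. Per the labels and the paper's methods, reads of 75 bp in pairs were aligned to GRCm38 with HISAT2 2.0.5 and quantified with StringTie 1.3.3, and SAMtools 1.7 is also listed. The authors deposited 1 table per library, with coverage (mean read depth per base), FPKM and TPM per feature, and no read counts. TPM in the deposited tables are FPKM rescaled within a library. Names were matched exactly and FPKM summed by name.

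The endothelial genes and all lists were chosen with earlier results of these data known. Depth was inferred as the mode of coverage divided by FPKM over features covered at more than 1 read per base, and the floor is the FPKM of 3 read pairs on the longest GENCODE vM1 transcript (of which only the length was used), for counting error only. A total of 12112 genes, with FPKM averaging 1 or more, entered the comparison of the labels on log2(FPKM + 1). It used limma 3.58.1 in R 4.3.3 (lmFit, eBayes with a trend, two-sided, Benjamini-Hochberg, 0.05). The code was first checked on simulated data, with less noise than these data and no split of the libraries across the labels. That check says nothing of the power of the test here. Fold changes on this scale understate those of low genes. A comparison of 3 with 3 libraries cannot give an exact p below 0.1. Named are all 10 genes, the 2 of highest mean FPKM per related list, list genes that pass limma, and the 10 genes of most similar profile. The authors' tables hold no comparisons. Promoters, the miRNA and gene spans are from RefSeq, GRCm38.p6. Alternatives were 2 pseudocounts, 2 filters, TPM, 3 normalizations, no trend, a replicate block and leaving out each library. Other steps used Python 3.11.15, pandas 2.3.3, numpy 2.4.6 and matplotlib 3.10.9.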

Additional observations from a re-analysis of the deposited data

Results flagged for a closer look

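The unnamed feature over the RefSeq span of *Stab2* had signal in data that the comparisons did not use, above the FPKM of 3 read pairs on a transcript of 1 kb. Its FPKM was 15.8 in B3, 19.4 in O2 and 19.5 in O3, and no higher than 0.134 in B1, B2 or O1. It had no part in any test.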

How the results depend on the processing

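The log2 fold change (osteoblasts over bone) of each of the 9 endothelial genes stayed positive under every alternative that could be run. With all 6 libraries kept it ran from 0.30 to 3.35, and none of the 9 passed limma there (lowest adjusted p = 0.960). With a mean FPKM of at least 5, *Kdr*, *Tek*, *Emcn*, *Flt1* and *Robo4* were not tested. Leaving out 1 library gave 0 to 1 endothelial genes called, 0 to 300 of all genes called, 0 to 5 genes of the related lists called, and 0 to 4 endothelial genes with every osteoblasts value above every bone value. The calls came without osteoblasts replicate 1 (300 genes), where 2 libraries carried that label, and without bone replicate 3 (77 genes, no endothelial gene among them), and the cause was not tested. An alternative chosen after seeing the data left out both libraries with most of their FPKM on unnamed features. It called 0 genes, with 4 endothelial genes (and 18.7% of all genes) higher in every osteoblasts library than in every bone library, and list medians of -0.60 for VEGF genes and -0.47 for Slit, Robo and Unc5 genes. Scaling to the sum over named genes moved the median log2 fold change of all genes by -0.15, and quantile normalization by -0.13. With the replicate block, limma called 49 genes in place of 0 and no endothelial gene. Deviations from the label means correlated at 0.84, -0.75 and 0.83 for replicates 1, 2 and 3, and at -0.91 to 0.83 for libraries with different numbers, so they do not show whether libraries with the same number share a mouse, and the numbers were not taken as pairs. The median of the angiopoietin list was 1.06 with a mean FPKM of at least 5, when fewer genes were tested, and that of the transcription factors -0.02 without bone replicate 2. Bone replicate 2 limits what can be read at low levels, since 6 of its 9 values were under 3 read pairs or listed at 0.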
